A study of Mus musculus with 4 samples.

Results

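Olfactory sensory neurons turn an odorant into an electrical signal through a small set of proteins, and 10 of the genes that build this signal were examined here in newborn mice that lacked the forkhead transcription factor FoxO6. The genes were listed by symbol, with earlier results of these data known: *Gnal*, *Gng13*, *Adcy3*, *Cnga2*, *Cnga4*, *Ano2*, *Stoml3*, *Omp*, *Rtp1* and *Ebf2*. All array probe sets annotated to one of these symbols and to no other gene were taken. Of the 10 genes, 8 had such a probe set, with 18 probe sets between them, among 18193 genes with a named probe set on the array. Signals of *Ano2* and *Rtp1* were not analysed here. RNA of the mandible and maxilla and RNA of the brain were hybridised for WT and for *FoxO6*-/- mice, 1 array for each combination, 4 arrays in all. The labels give the age as postnatal day 0 for all 4 samples, whereas the methods speak of embryos for the mandible and maxilla. The *FoxO6*-/- mice carried a LacZ and neomycin cassette in place of the *FoxO6* coding sequence in every cell of the body, made in C57BL/6 embryonic stem cells. By the methods, a mandible and maxilla array carried RNA pooled from several animals, and the mutant mice included heterozygotes as well as nulls. No replicate array existed for any group, and no *FoxO6*-/- against WT difference within a tissue was tested.

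In the cilia of these neurons, an odorant receptor activates the G protein that holds Gαolf (*Gnal*) and the γ subunit Gγ13 (*Gng13*). Gαolf switches on adenylyl cyclase III (*Adcy3*), cyclic AMP opens a channel built from *Cnga2*, *Cnga4* and *Cngb1*, and the calcium that enters opens the chloride channel *Ano2*. *Omp* marks mature olfactory neurons, *Stoml3* encodes a stomatin-like protein of their cilia and of touch neurons, *Rtp1* carries receptors to the cell surface, and *Ebf2* belongs to the Olf/EBF transcription factors, first described as regulators of olfactory neuron genes. Several of these genes are used elsewhere as well: *Gnal* in the striatum, *Gng13* in taste cells, *Adcy3* in the primary cilia of many cells and *Ebf2* in brown fat precursors and mesenchyme. The olfactory epithelium lies in the nasal cavity above the maxilla, and its axons end in the olfactory bulb at the front of the brain.

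Values are MAS5 signals, a linear brightness per probe set that the array software had scaled to the same trimmed mean, 500.0, on every array. The median of all signals, 101, was used as a floor, and a gene was counted in a tissue where the mean of its 2 signals there was at or above it. Between 48.6% and 51.5% of probe sets lay at or above this floor on each array. A gene with several probe sets was given the value of its brightest one, and the others are described beside it. The 3' to 5' signal ratio of the *Actb* controls, a sign of RNA quality, was 3.37 for *FoxO6*-/- mandible and maxilla and 2.21 to 2.23 on the other 3 arrays, and its part in the mandible and maxilla ratios was not tested. On the WT brain array, the summed signal of 7 brown fat genes was 66488, against 11854 on the *FoxO6*-/- brain array, with *Cidea*, a lipid droplet protein of brown fat, at 10248 against 728. No probe set was annotated to *Foxo6* alone, so the deletion itself could not be read from these arrays.

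In the mandible and maxilla, 7 of the 8 genes had a lower signal on the *FoxO6*-/- array than on the WT array. Over all genes at or above the floor there, 51.3% were lower. The median log2 ratio over the 8 was -1.41, with *Cnga4* and *Omp* included although their means were below the floor. Of the 6 genes at or above the floor in this tissue, 5 were at least 2-fold lower (*Gng13*, *Cnga2*, *Ebf2*, *Gnal* and *Stoml3*) and *Adcy3* was higher by less than 2-fold. *Cnga2* passed the floor here only through the WT array and so had to be lower, and nothing is read from its place in this count. Over the 12186 genes at or above the floor, the median log2 ratio was -0.01 and 1.69% were at least 2-fold lower. Among genes with a mean signal between the floor and 524, the 75th percentile of all signals, this share was 3.26%. In brain 7 of the 8 genes had a higher signal on the *FoxO6*-/- array, as did 57.3% of the 12327 genes at or above the floor there. The median log2 ratio over the 8 was 1.31, but 0.12 with signals below the floor raised to it. By the deposited signals the direction was opposite to that in mandible and maxilla for 6 of the 8, since *Adcy3* was higher and *Ebf2* lower in both tissues. *Cnga2*, *Cnga4* and *Omp* were below the floor on both brain arrays, and no direction in brain is read for them. Of all genes at or above the floor in both tissues, 27.8% were lower in mandible and maxilla and higher in brain. Only 5 of the 8 genes were at or above the floor in brain, with a median log2 ratio of 0.42. Of the 5, 2 (*Gng13* and *Stoml3*) were at least 2-fold higher, against 1.13% of all genes tested, or 2.09% of those between the floor and the 75th percentile. Both passed the floor in brain only through the *FoxO6*-/- array and so had to be higher there, and nothing is read from their count. With low signals raised to the floor, *Gng13* alone was at least 2-fold higher. In whole tissue, fewer cells that use these genes and less RNA per cell cannot be told apart. The part of nasal tissue in each dissection was not tested.

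**Figure D1:**
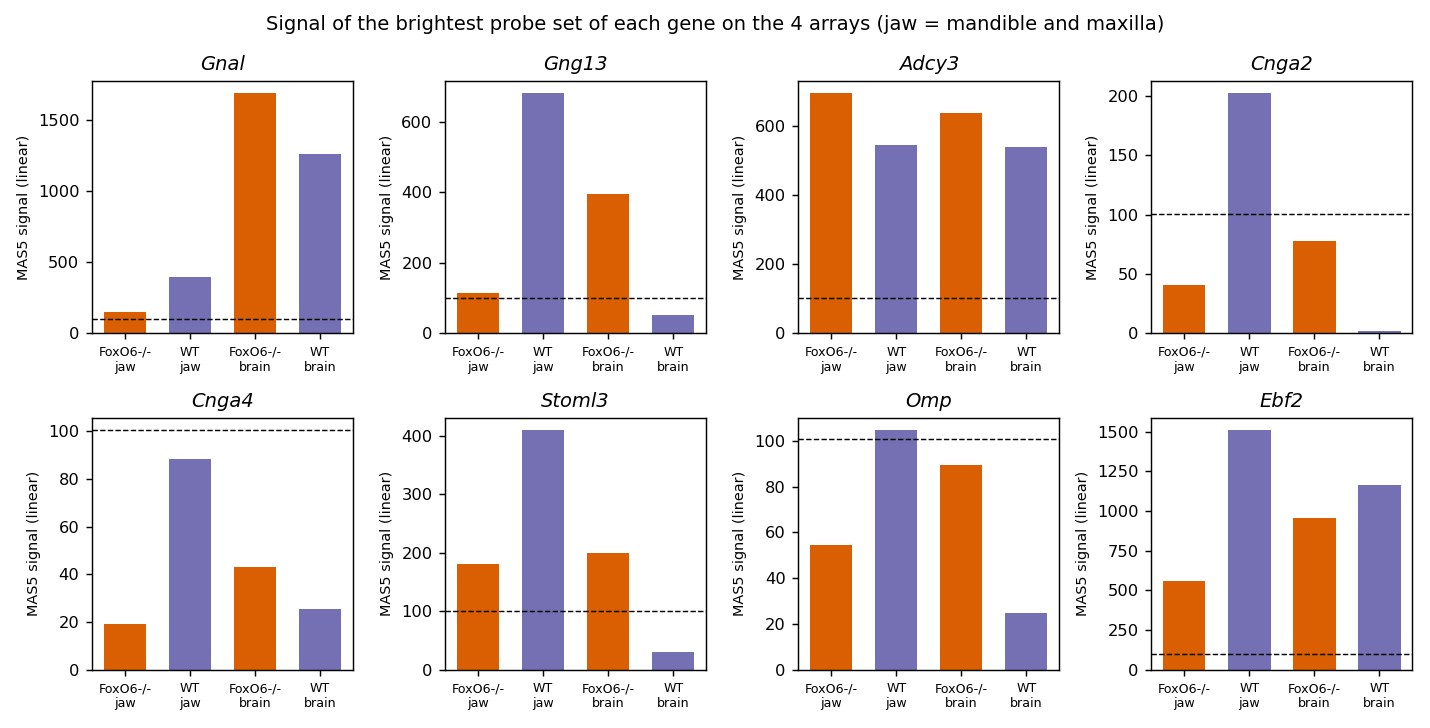
MAS5 signal (linear axis from 0) of the brightest probe set of each of the 8 genes on the 4 arrays, 1 bar per array, with the floor of 101 as a dashed line. *Gng13*, *Cnga2*, *Cnga4*, *Stoml3*, *Omp* and *Ebf2* were highest on the WT mandible and maxilla array, and *Gnal* was higher in brain than in mandible and maxilla in both genotypes.

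*Gng13*, the γ subunit of the olfactory G protein, had a signal of 114 on the *FoxO6*-/- and 681 on the WT mandible and maxilla array, and of 395 on the *FoxO6*-/- and 52.3 on the WT brain array. The WT mandible and maxilla array was thus the highest and the WT brain array, below the floor, the lowest. The signal was 5.97-fold lower in *FoxO6*-/- mandible and maxilla (log2 ratio -2.58) and higher in *FoxO6*-/- brain, by 3.93-fold with the WT brain signal raised to the floor (log2 ratio 1.97, against 2.92 from the signals as deposited). In WT mice it was higher in mandible and maxilla than in brain by 3.70 on the log2 scale, whereas in *FoxO6*-/- mice the log2 ratio of mandible and maxilla to brain was -1.79. A dimmer probe set of *Gng13* was below the floor on all 4 arrays, with 9.71, 65.5, 36.6 and 53.5 in the same order of arrays, and was not higher in *FoxO6*-/- brain.

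*Gnal*, which encodes the α subunit Gαolf, differed from *Gng13* in its distribution. Its brightest probe set read 151 in *FoxO6*-/- and 393 in WT mandible and maxilla, and 1691 in *FoxO6*-/- and 1260 in WT brain. Brain was the higher tissue in both genotypes. Its log2 ratio was -1.38 in mandible and maxilla and 0.42 in brain, but the brain ratio was -0.83 with the mean of all 3 *Gnal* probe sets, 1 of which was below the floor. A second *Gnal* probe set read 76.5, 322, 948 and 766 on the same arrays, with log2 ratios of -2.07 and 0.31. The third stayed below the floor, at 13.7, 33.5, 6.53 and 61.6. All *Gnal* probe sets were thus lower in *FoxO6*-/- mandible and maxilla. The second passed the floor there through the WT array alone and so had to be lower, and nothing is read from it or from the third. In *FoxO6*-/- brain both probe sets above the floor were higher. *Gnal* is also a striatal gene, and of 6 striatal neuron genes above the floor in brain 5 were higher in *FoxO6*-/-, as were 57.3% of all genes tested there. The median log2 ratio of the 6 was 0.25.

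*Adcy3*, the cyclase that Gαolf activates, was the exception in mandible and maxilla. Its brightest probe set read 695 in *FoxO6*-/- and 546 in WT mandible and maxilla, and 637 and 540 in brain. The second read 443 and 335 in mandible and maxilla and 455 and 368 in brain. In both probe sets the *FoxO6*-/- array was the higher of each pair, by log2 ratios of 0.35 (brightest) and 0.40 (second) in mandible and maxilla, and by 0.24 and 0.31 for the brain pair. These ratios were of the size by which probe sets of 1 gene disagreed: over 4927 genes with more than 1 measurable probe set in mandible and maxilla, the log2 ratios of the brightest pair differed with an SD of 0.41, and in brain the SD was 0.39. The remaining pair of *Adcy3* probe sets had a mean below the floor in both tissues. Each had a log2 ratio of 0.12 in mandible and maxilla. In brain they read 118 and 87.2 in *FoxO6*-/- against 49.5 and 43.2 in WT, log2 ratios of 1.25 and 1.01, with 1 of these signals above the floor.

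The channel subunits *Cnga2* and *Cnga4* were dim. *Cnga2*, the principal subunit of the olfactory channel, read 41.0 in *FoxO6*-/- and 203 in WT mandible and maxilla, and 77.7 in *FoxO6*-/- and 1.30 in WT brain. It was above the floor on 1 array, WT mandible and maxilla, and passed the floor in that tissue through that array alone. Its log2 ratio there was -2.31, or -1.01 with the *FoxO6*-/- signal raised to the floor. *Cnga4*, a subunit that modulates the channel, was below the floor on every array, at 19.2 and 88.6 in *FoxO6*-/- and WT mandible and maxilla and at 43.2 and 25.6 in brain. For neither subunit could a fold difference be given in brain, because both brain signals were below the floor.

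*Stoml3* resembled *Gng13* in the order of the arrays. Its brightest probe set read 182 in *FoxO6*-/- and 411 in WT mandible and maxilla, and 200.2 in *FoxO6*-/- and 31.1 in WT brain, so that it was 2.26-fold lower in *FoxO6*-/- mandible and maxilla (log2 ratio -1.18) and higher in *FoxO6*-/- brain. The WT brain signal was below the floor, and raised to it gave a 1.99-fold difference (log2 ratio 0.99, against 2.69 from the signals as deposited). The log2 ratio of mandible and maxilla to brain was 3.72 in WT and -0.14 in *FoxO6*-/- mice. A second *Stoml3* probe set, of a design that can also bind related transcripts, read 69.9, 392, 111 and 24.4 on the same arrays and showed the same directions.

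*Omp*, the gene by which mature olfactory neurons are usually recognised, was scarcely measurable. Its brightest probe set read 54.3 in *FoxO6*-/- and 105 in WT mandible and maxilla, and 89.5 in *FoxO6*-/- and 24.7 in WT brain. Only the WT mandible and maxilla array exceeded the floor, and its mean did not in either tissue. The second *Omp* probe set was below the floor on all arrays, at 10.2, 11.3, 77.2 and 12.1. The order of arrays in the brightest probe set, WT mandible and maxilla highest, then *FoxO6*-/- brain, *FoxO6*-/- mandible and maxilla and WT brain, was also that of *Gng13*, *Cnga2* and *Stoml3*. This order, noticed after the values were seen, held for these 4 of the 8 genes and for 2.87% of all genes with a named probe set.

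*Ebf2*, the transcription factor among the 8 genes, read, in its brightest probe set, 557 in *FoxO6*-/- and 1512 in WT mandible and maxilla, and 959 and 1163 in brain. It was 2.72-fold lower in *FoxO6*-/- mandible and maxilla (log2 ratio -1.44), and it was the one gene of the 8 with a lower signal in *FoxO6*-/- brain (log2 ratio -0.28). The dimmer pair of probe sets read 249 and 51.2 in *FoxO6*-/- against 810 and 161 in WT mandible and maxilla, with log2 ratios of -1.70 and -1.65. In brain these 2 probe sets gave log2 ratios of -0.25 and -1.61, the second of them below the floor. All 3 *Ebf2* probe sets were therefore lower in *FoxO6*-/- in both tissues. The dimmest passed the floor in mandible and maxilla through the WT array alone, so nothing is read from its direction there. Nor is anything read from its brain direction. The 2 brighter *Ebf2* probe sets were above the floor on all 4 arrays. Its relatives *Ebf1*, *Ebf3* and *Ebf4*, named here after their values were seen, had mandible and maxilla log2 ratios of -0.62 (*Ebf1*), -0.74 (*Ebf3*) and -0.09 (*Ebf4*). Their brain log2 ratios were 0.03, -0.03 and -0.17. *Ebf2* is also active in brown fat precursors, and the brown fat genes were lower on the *FoxO6*-/- brain array, as described above, whereas in mandible and maxilla 4 of the 5 above the floor were higher in *FoxO6*-/-. Their part in the *Ebf2* values was not tested.

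**Figure D2:**
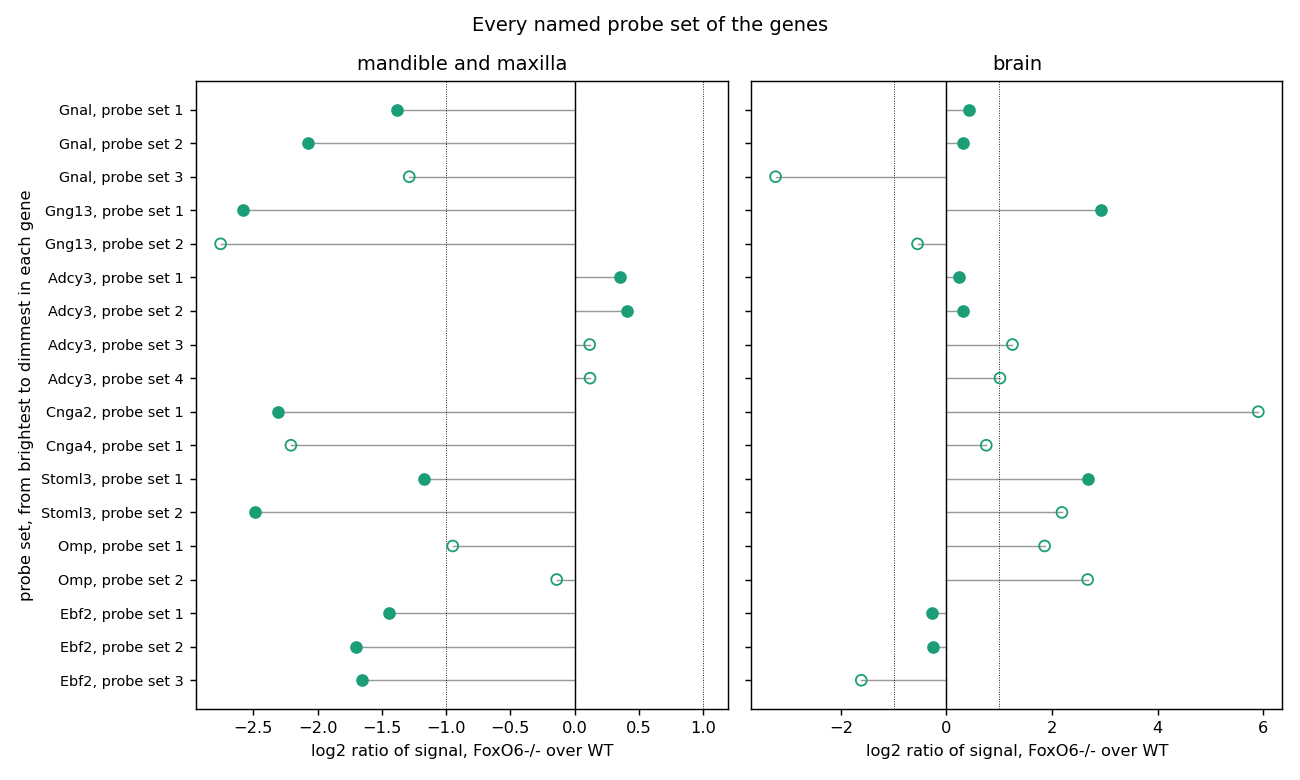
Log2 ratio of *FoxO6*-/- over WT signal for each of the 18 probe sets of the 8 genes in mandible and maxilla and in brain, with filled points for probe sets whose mean of the 2 signals was at or above the floor. In mandible and maxilla all 9 filled points outside *Adcy3* lie at or below -1, some of them filled through the WT array alone. In brain 6 of 8 filled points lie above 0.

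Counted by probe set rather than by gene, 14 of 18 were lower in *FoxO6*-/- mandible and maxilla, and the other 4 were those of *Adcy3*. Of the 11 probe sets at or above the floor there, 9 were at least 2-fold lower. Among these, the probe set of *Cnga2*, the second ones of *Gnal* and *Stoml3* and the dimmest of *Ebf2* passed through the WT array alone. They had to be lower, and nothing is read from their place in the count, which was not set beside a share of all probe sets. In brain 13 of 18 were higher in *FoxO6*-/-, but only 8 were at or above the floor, of which 6 were higher and 2 of these at least 2-fold. Probe sets of 1 gene share its transcripts and do not replicate the comparison.

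Olf/EBF factors, the family of *Ebf2*, were first found on promoters of olfactory neuron genes. Promoters are therefore shown for the 4 genes with a promoter at hand whose deposited signals were lower in *FoxO6*-/- mandible and maxilla and higher in *FoxO6*-/- brain. *Cnga2* and *Cnga4* were below the floor on both brain arrays, and no direction in brain is read for them. Each promoter runs from 250 bases before to 50 bases after the first annotated start of transcription in RefSeq, mouse build GRCm38.p6, on the + strand. Capitals mark matches to CCCNNGGG, the core of the EBF motif, which reads the same on both strands. The windows are chr17:25716922-25717221 for *Gng13*, chrX:71991599-71991898 for *Cnga2*, chr7:105404318-105404617 for *Cnga4* and chr3:53488457-53488756 for *Stoml3*.
Gng13: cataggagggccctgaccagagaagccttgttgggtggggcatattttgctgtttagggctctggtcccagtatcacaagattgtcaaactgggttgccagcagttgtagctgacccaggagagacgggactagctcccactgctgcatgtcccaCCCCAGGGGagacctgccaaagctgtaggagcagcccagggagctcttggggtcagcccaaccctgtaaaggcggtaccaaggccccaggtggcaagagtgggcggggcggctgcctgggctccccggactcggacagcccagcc
Cnga2: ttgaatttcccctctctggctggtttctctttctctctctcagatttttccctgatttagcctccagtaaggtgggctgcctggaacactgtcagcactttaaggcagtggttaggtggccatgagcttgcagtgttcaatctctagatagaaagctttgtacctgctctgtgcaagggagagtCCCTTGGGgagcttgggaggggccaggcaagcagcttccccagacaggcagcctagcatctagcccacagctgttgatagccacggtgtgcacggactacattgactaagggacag
Cnga4: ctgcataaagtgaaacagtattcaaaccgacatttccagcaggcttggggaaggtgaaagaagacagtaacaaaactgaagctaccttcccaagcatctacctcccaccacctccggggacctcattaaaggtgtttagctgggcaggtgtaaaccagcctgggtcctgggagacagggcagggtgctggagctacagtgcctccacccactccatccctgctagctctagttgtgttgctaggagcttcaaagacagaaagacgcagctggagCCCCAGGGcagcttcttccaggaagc
Stoml3: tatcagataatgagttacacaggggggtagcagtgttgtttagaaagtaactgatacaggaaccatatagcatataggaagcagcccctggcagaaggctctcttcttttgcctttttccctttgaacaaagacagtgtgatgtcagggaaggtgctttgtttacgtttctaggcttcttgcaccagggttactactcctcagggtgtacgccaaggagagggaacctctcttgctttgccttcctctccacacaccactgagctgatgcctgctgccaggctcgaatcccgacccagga
*Gng13* held 2 overlapping matches, which began 95 and 94 bases before the start, *Cnga2* held 1 that began 66 bases before it, and *Cnga4* held 1 that began 24 bases after it. *Stoml3* held none. Over all 6 listed genes with a promoter at hand, 4 of 10 promoters held a match, the fourth being 1 of 3 start sites of *Ano2*, and neither start site of *Adcy3* did. The motif was found in 13.7% of all 32851 mouse promoters of this length, so a match is common and describes letters, not binding. TAATTA, a homeodomain core motif, was in none of the 10 and in 5.29% of all promoters.

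Both tissues could be set side by side for the 5 genes at or above the floor in each. Of these, *Gng13* and *Stoml3* were at least 2-fold lower in *FoxO6*-/- mandible and maxilla and at least 2-fold higher in *FoxO6*-/- brain, where 0.209% of 11494 genes were. Because both passed the brain floor through the array on which they were high, nothing is read from that share, and *Stoml3* was under 2-fold in brain with the WT signal raised to the floor. *Gnal* as well was lower in the one and higher in the other by any amount, giving 3 of 5 genes, 2 of them subject to the same limit, where 27.8% of all genes were. In WT mice 7 of the 8 genes had a higher signal in mandible and maxilla than in brain, all but *Gnal*. In *FoxO6*-/- mice *Adcy3* alone did. For *Adcy3* the log2 ratio of mandible and maxilla to brain was only 0.02 in WT and 0.13 in *FoxO6*-/- mice. Its second probe set gave -0.13 and -0.04. *Cnga2* and *Omp* were below the floor on 3 arrays and *Cnga4* on all 4. These counts were not set beside a share of all genes, and nothing is read from them.

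**Figure D3:**
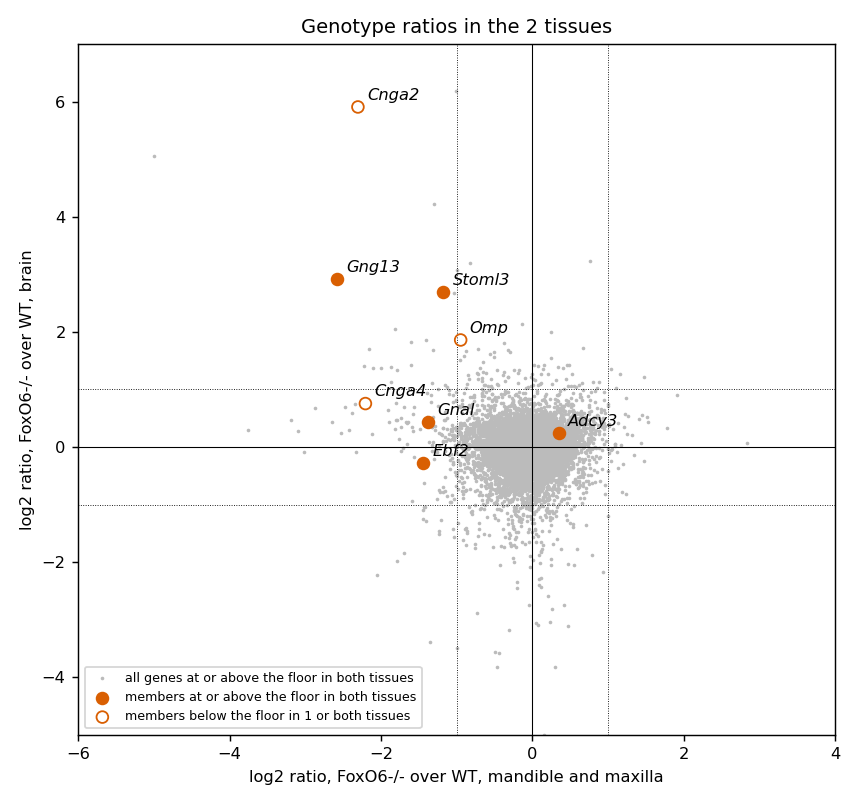
Log2 ratio of *FoxO6*-/- over WT signal in mandible and maxilla (horizontal axis) against that in brain (vertical axis) for 11494 genes at or above the floor in both tissues (grey points, with 3 beyond the axes) and the 8 olfactory transduction genes (filled where at or above the floor in both tissues, hollow otherwise). *Gng13* and *Stoml3* lie in the upper left, *Adcy3* near the centre at 0.35 and 0.24, and *Ebf2* at -1.44 and -0.28.

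A difference between the genotypes was tested only over both tissues at once, with limma and tissue as a term, where the 2 tissues stood in for replicates and 1 residual degree of freedom was left. No gene of 12569 passed an adjusted p of 0.05 for genotype (0% called, 588 at an unadjusted p under 0.05, lowest adjusted p 0.902). For *Ebf2*, with the same direction in both tissues, the log2 difference between *FoxO6*-/- and WT was -0.86 with an SE of 0.35 (limma adjusted p = 0.902). For *Gng13*, whose directions were opposite, it was 0.17 with an SE of 1.5 (limma adjusted p = 0.985). *Gnal*, *Adcy3* and *Stoml3* had log2 differences of -0.48, 0.29 and 0.76. *Cnga2*, *Cnga4* and *Omp* had a mean over the 4 arrays below the floor and were not in the fit. For tissue, 15.2% of genes passed, none of the 5 fitted genes among them, although 1 had an unadjusted p under 0.05. This was *Gnal*, lower in mandible and maxilla than in brain by a log2 difference of -2.59 with an SE of 0.51 (limma adjusted p = 0.0616).

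The rest of the olfactory transduction pathway held no gene above the floor with a 2-fold difference. Of 25 further pathway genes, 17 had a named probe set and 13 were at or above the floor in each tissue. In mandible and maxilla 6 of the 13 were lower and 7 higher in *FoxO6*-/-, none by 2-fold, with a median log2 ratio of 0.04. In brain 5 were lower and 8 higher, none by 2-fold, with a median of 0.09. The lowest in mandible and maxilla were *Pde1c*, a calcium-dependent phosphodiesterase that degrades cyclic AMP in olfactory cilia, at a log2 ratio of -0.95, and *Ric8b*, a chaperone of Gαolf, at -0.63. In brain these were at 0.42 and 0.19. *Pde1c*, at 88.5 in *FoxO6*-/- and 171 in WT mandible and maxilla, passed the floor there through the WT array alone and so had to be lower. *Camk2a*, a calcium-dependent kinase, and *Gnas*, the widely used relative of *Gnal*, were higher in *FoxO6*-/- mandible and maxilla, at 0.36 and 0.27. Many of these genes are used in most tissues, and the more restricted *Cngb1* and *Slc24a4*, the third channel subunit and a sodium-calcium exchanger of olfactory cilia, had a mean below the floor in both tissues. *Cngb1* read 74.2 in *FoxO6*-/- and 42.2 in WT mandible and maxilla and 16.2 and 63.9 in brain, opposite in direction to *Cnga2* and *Cnga4* in each tissue. *Slc24a4* read 8.18 and 104 in mandible and maxilla and 11.3 and 60.2 in brain. Both were named after their values were seen.

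Odorant receptor genes, which each neuron uses one at a time, were not measurable. All 39 *Olfr* genes with a named probe set, 44 probe sets in all, were below the floor on every array, with signals from 0.617 to 79.4. The median *Olfr* signal was 15.3 in *FoxO6*-/- and 15.9 in WT mandible and maxilla, and 19.3 and 18.7 in brain. The 3 with the highest mean signal were *Olfr66*, *Olfr78* and *Olfr1264*. The 32 vomeronasal receptor genes were below the floor as well. *Ms4a* genes, of a family that serves as receptors in one type of olfactory neuron and is otherwise found in immune cells, were measured, and the brightest, *Ms4a6b*, read 510 in *FoxO6*-/- and 420 in WT mandible and maxilla and 493 and 453 in brain. The defining markers of mature olfactory neurons, *Omp* and the receptors, were thus at or below the floor in both tissues, and the presence of these neurons was not shown by them.

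Genes of olfactory neuron identity and axons were mostly lower in *FoxO6*-/- mandible and maxilla. Of 22 listed genes 19 had a named probe set, and 14 of the 16 above the floor there were lower, 4 of them by 2-fold or more. The median log2 ratio was -0.39. Over all genes tested there, 51.3% were lower and 1.69% at least 2-fold lower. Of the 16, 2 (*Insm1* and *S100a5*) passed the floor through the WT array alone and so had to be lower. The lowest was *Insm1*, a zinc finger factor of dividing neuronal progenitors, with 89.9 in *FoxO6*-/- and 1220 in WT mandible and maxilla and 1137 and 927 in brain. *Neurod1*, a neuronal differentiation factor, read 102 and 533 in mandible and maxilla and 2027 and 1349 in brain. Both were thus close to the floor in *FoxO6*-/- mandible and maxilla and well above it on the other 3 arrays. At the other end, *Ldb1*, a cofactor of LIM homeodomain proteins, and *Nrp1*, an axon guidance receptor of many cells, had log2 ratios of 0.31 and 0.04. In brain 11 of 16 identity genes were higher in *FoxO6*-/-, none by 2-fold, with a median of 0.32, and 57.3% of all genes tested there were higher. Vomeronasal neuron genes gave medians of -0.27 over 6 genes in mandible and maxilla and 0.31 over 4 in brain, and *Gng8*, the γ subunit of vomeronasal neurons, signals of 159 and 236 in *FoxO6*-/- and WT mandible and maxilla, against 257 and 129 in brain.

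Genes of other cells of the nasal lining were set beside the olfactory neuron genes. Of 14 named sustentacular cell and Bowman gland genes, which support and moisten the olfactory epithelium, 7 were above the floor in each tissue. In mandible and maxilla 6 of the 7 were lower in *FoxO6*-/-, with a median log2 ratio of -1.04, 3 of the 7 passing through the WT array alone, and in brain all 7 were higher. For 5 of these 7 the WT brain signal was below the floor, so that they passed the floor through the *FoxO6*-/- array alone and had to be higher. With low signals raised to the floor, 6 of the 7 were at least 2-fold higher in brain, as were 108 of 12327 genes, and the median log2 ratio was 2.47. The same 5 genes are among the 6, so nothing is read from that count or median. Over all genes at or above the floor, 51.3% were lower in mandible and maxilla and 57.3% higher in brain. The summed signal of the 14 was 11080 in *FoxO6*-/- and 27874 in WT mandible and maxilla, and 18110 in *FoxO6*-/- and 1750 in WT brain. *Bpifb9b*, a secreted lipid-binding protein of the nasal glands, read 4.62 and 6546 in *FoxO6*-/- and WT mandible and maxilla and 6462 and 1.72 in *FoxO6*-/- and WT brain, and *Bpifb5*, of the same family, read 33.4, 1067, 1032 and 31.0. The other 7 listed genes with a probe set, among them the odorant-binding proteins, had a mean below the floor in mandible and maxilla. *Cyp2g1*, an olfactory cytochrome P450, read 605 and 1203 in mandible and maxilla and 477 and 56.8 in brain, while *Lcn11*, a lipocalin, went the other way in mandible and maxilla, at 1283 and 415. On the WT brain array the listed gland and sustentacular genes were thus near or below the floor except *Bpifa1*, at 1408, and the part of nasal tissue in the brain values of *Gng13* and *Stoml3* was not tested.

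Ciliated cells, neurons and cartilage were measured in the same way, since the nasal capsule and its lining hold all of them. Of 9 ciliated cell genes above the floor in mandible and maxilla 8 were lower in *FoxO6*-/- (median log2 ratio -0.66), and of 8 in brain 7 were higher, 3 of the 8 passing the floor through the *FoxO6*-/- array alone (median 1.34, or 1.16 with low signals raised to the floor). All 9 pan-neuronal genes above the floor in mandible and maxilla were lower in *FoxO6*-/- (median -0.85), with *Elavl3*, an RNA-binding protein of neurons, at -1.77 and *Snap25*, of the synaptic release machinery, at -1.64. *Snap25*, at 63.4 and 197, passed the floor there through the WT array alone and so had to be lower. With low signals raised to the floor, 2 of the 9 were at least 2-fold lower, as were 158 of 12186 genes. In brain 11 of 12 were higher (median 0.35). Over all genes at or above the floor, 51.3% were lower in mandible and maxilla and 57.3% higher in brain. All 13 cartilage genes were lower in *FoxO6*-/- mandible and maxilla (median -0.86) and higher in *FoxO6*-/- brain (median 0.81), and their summed signal was 36991 and 58250 in *FoxO6*-/- and WT mandible and maxilla and 63652 and 35324 in brain. The part of cartilage, ciliated cells and other neurons in the olfactory values was not tested.

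**Figure D4:**
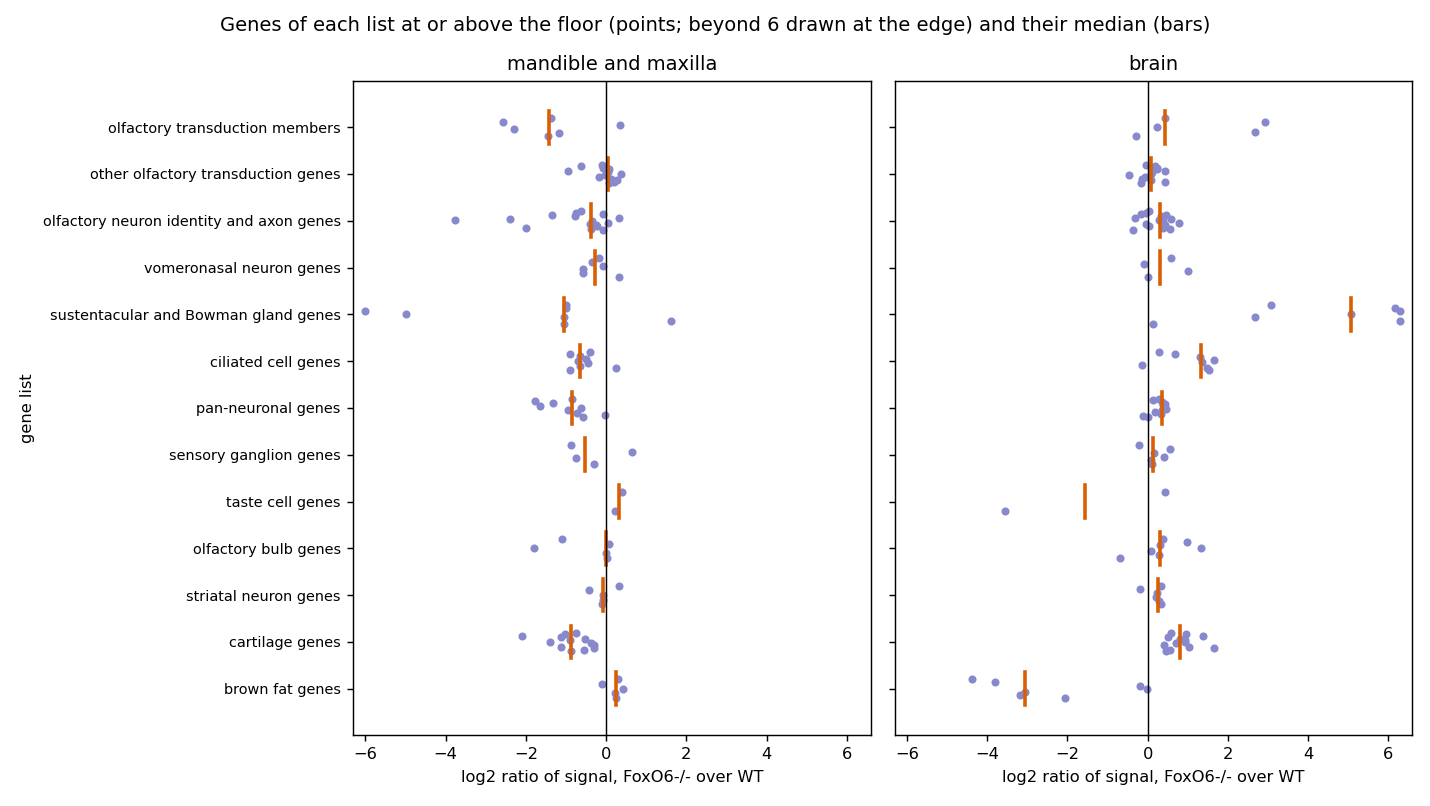
Log2 ratio of *FoxO6*-/- over WT signal of single genes (points) and the median of each gene list (line) in mandible and maxilla and in brain, for genes at or above the floor in that tissue, with values beyond 6 drawn at the edge. The medians of the sustentacular and Bowman gland, ciliated cell and cartilage genes were below 0 in mandible and maxilla and above 0 in brain, and those of the other transduction genes were 0.04 and 0.09.

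Lists from neighbouring sensory tissues were measured as well. Of 8 named sensory ganglion genes, 4 were above the floor in mandible and maxilla, with a median log2 ratio of -0.53, and 6 in brain, with a median of 0.13. *Gng13* is also a taste cell gene, and of the taste cell genes 2 were above the floor in mandible and maxilla, *Trpm5*, a cation channel of taste transduction, at a log2 ratio of 0.40 and *Itpr3*, the calcium release channel of taste cells, at 0.22, both within the spread between probe sets given above. Olfactory bulb genes, which a brain dissection may hold or lack, had a median log2 ratio of 0.31 over 7 genes in brain, with *Sp8*, a transcription factor of bulb interneurons and of the early face, at 360 in *FoxO6*-/- and 143 in WT brain and at 81.2 and 281 in mandible and maxilla. *Cdhr1*, a cadherin of mitral cells, read 701 and 353 in brain and 121 and 259 in mandible and maxilla. These were the lowest of the list in mandible and maxilla, where its median log2 ratio over 5 genes was -0.01. *Sp8* passed the floor in mandible and maxilla through the WT array alone and so had to be lower there. At the upper end there, *Reln*, a secreted protein of neuronal layering, and *Lbhd2* were at 0.08 and 0.01, and *Lbhd2* was at -0.69 in brain.

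Genes with a profile like that of the olfactory neuron genes were sought among the 12564 other genes with a mean over the 4 arrays at or above the floor. Likeness was the root mean square difference of the 4 log2 signals, each gene centred on its own mean, from the mean profile of *Omp*, *Cnga2*, *Cnga4*, *Gng13* and *Stoml3*. The nearest was *5730403I07Rik*, at 0.23 log2 units, which read 76.8 in *FoxO6*-/- and 317 in WT mandible and maxilla and 159 and 31.6 in brain. *Bpifa1*, a secreted protein of the nasal airway lining, followed at 0.34, with 8364 and 17217 in mandible and maxilla and 8964 and 1408 in brain. Then came *Abca13* at 0.38, *Slc27a2*, a fatty acid transporter, at 0.42, and *S100a5*, a calcium-binding protein of olfactory neurons, at 0.44. *Tsnaxip1*, *Gm13648*, *Ttc29*, *Ctxn3* and *Lrrc23* completed the nearest 10, at up to 0.53. The olfactory genes themselves lay at 0.32 (*Stoml3*), 0.34 (*Gng13*), 0.58 (*Omp*), 0.92 (*Cnga4*) and 1.42 (*Cnga2*), and those left out of the profile, *Ebf2*, *Adcy3* and *Gnal*, at 1.36, 1.37 and 2.16. Much of this profile lay below the floor, *Cnga4* on all 4 arrays and *Cnga2* and *Omp* on 3, so the order of the genes describes these 4 arrays and carries no weight beyond them.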

How the data were processed

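Mandible and maxilla and brain of WT and FoxO6-/- mice were each measured on 1 Affymetrix whole-genome mouse expression array. The deposited values are MAS5 intensities, which the authors' software had background-corrected, summarised per probe set and scaled to an equal trimmed mean, and no column of per-sample values was left unmapped (0). Of 45101 probe sets, 64 controls were left out, 34945 were named by 1 gene in the platform annotation, 932 by several and 9160 by none. Of the named ones, 34741 matched the RefSeq table by Entrez ID. The number of arrays limits the precision, and read depth does not apply. From the deposited signals log2 ratios of FoxO6-/- over WT were taken per tissue, with a floor at the median of all signals (101), a limit of 2-fold and no test. limma 3.58.1 in R 4.3.3 fitted genotype and tissue over the 4 arrays with Benjamini-Hochberg adjustment, and was tested on simulated data with known differences. Python 3.11.15 with pandas 2.3.3 and numpy 2.4.6 was used otherwise. The genes and lists were chosen with earlier results of these data known. Named were all olfactory transduction genes, from each other list at most the 2 highest and 2 lowest genes in mandible and maxilla, the 10 genes nearest in profile and up to 3 receptor genes per family, and any other gene is marked as chosen after its values were seen. Alternatives were quantile normalisation, median centring, other probe set rules, raising low signals to the floor, other floors, and limma with a trend, with single probe sets or without a term.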

Additional observations from a re-analysis of the deposited data

Results flagged for a closer look

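For 6 of the 8 genes the deposited signal was lower in FoxO6-/- mandible and maxilla and higher in FoxO6-/- brain, which marked them for a second look. Of all genes at or above the floor in both tissues, 27.8% had these directions. The difference between the 2 tissues was not tested, since each group was 1 array. On the log2 scale, the ratio in mandible and maxilla minus that in brain was -1.81 for *Gnal*, -5.49 for *Gng13*, -8.21 for *Cnga2*, -2.96 for *Cnga4*, -3.86 for *Stoml3* and -2.81 for *Omp*. These values take the signals as deposited, including those below the floor, and so are not sizes of a difference for *Cnga2*, *Cnga4* and *Omp*, which were below the floor on both brain arrays. With low signals raised to the floor, the same value was -1.81 for *Gnal*, -4.55 for *Gng13*, -1.01 for *Cnga2*, 0 for *Cnga4*, -2.17 for *Stoml3* and -0.06 for *Omp*.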

How the results depend on the processing

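No paired analysis was possible because each group held 1 array and no replicate numbers were shared, although the limma fit compared the genotypes within tissue. The number of olfactory genes at least 2-fold higher in FoxO6-/- brain, 2 as reported, was 0 with the mean of all probe sets, 1 with low signals raised to the floor, 4 with no floor and 0 with the floor at the 75th percentile. The number at least 2-fold lower in mandible and maxilla, 5 as reported, was 1 with the floor at the 75th percentile and 5 or 6 otherwise. With low signals raised to the floor, the median log2 ratio in brain was 0.12 in place of 1.31, and in mandible and maxilla the median ran from -1.71 to -1.09 over the alternatives. The genes called for tissue, 1911 as reported, were 0 with no floor and 2916 with a trend in limma. For genotype limma called 0 in every setting, with 83 to 1041 genes at an unadjusted p under 0.05. All 16 ratios kept their sign under quantile normalisation and median centring. Median centring moved the median log2 ratio of all genes by 0.13 in mandible and maxilla and 0.14 in brain, and the share of lower genes among those changed 2-fold was 74.1% as reported, 56.0% after quantile normalisation and 51.2% after median centring in mandible and maxilla, and 64.3%, 57.7% and 45.8% in brain. Of 80 single-gene values under alternatives, 14 moved by more than the spread between probe sets, among them *Gnal* in brain, at -0.83 with the mean of all probe sets. The cause of these shifts was not tested. Signals at or below the floor limit what can be said of *Cnga2*, *Cnga4* and *Omp*.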
